A study of Mus musculus with 15 samples.

Results

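The mitochondrial ribosomal protein genes were followed across the ileum of 15 mice. A gene was taken as a member when its symbol began with Mrpl or Mrps and a digit and when its FPKM (fragments scaled to the length of the transcript and to all mapped fragments) averaged at least 1 over the 15 mice, with a mouse in which it was not listed counted as 0. This gave 78 members among 17752 genes. All 78 matching symbols met the minimum, and each was listed in all 15 mice. The level nearest the minimum was 4.07 FPKM, for Mrpl17, and no matching gene lay under it. All mice were female C57BL/6 (C57BL/6JOlaHsd by the methods), aged 8 weeks by the labels, and all were gavaged every 2 days. The water group (5 mice) received water. The low PAC group (5 mice) received 200 mg/kg of proanthocyanidins of low molecular weight from grape, and the high PAC group (5 mice) received the same dose of grape proanthocyanidins of high molecular weight. Proanthocyanidins are plant polyphenols built from flavan-3-ol units, and the methods of the study describe both preparations as mixtures of polymers, the larger one as of medium mean degree of polymerization. The methods give a purified control diet for every group and no disease model. Each library came from a piece of ileum holding epithelium, muscle, nerve and lymphoid cells together, so fewer cells of a type and less RNA per cell cannot be told apart.

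The mitochondrial ribosome, or mitoribosome, translates the few messenger RNAs encoded by mitochondrial DNA, whose products are core subunits of the respiratory chain complexes and of ATP synthase. All of its proteins are encoded in the nucleus, made by cytosolic ribosomes and imported. Some descend from proteins of the bacterial ribosome, whereas others were added in the mitochondrial lineage and have no bacterial counterpart. Genes encoded by the mitochondrial DNA were not analysed here. By known function, 51 members encode proteins of the large subunit, where peptide bonds are formed, and 26 encode proteins of the small subunit, where the message is decoded. The remaining member, Mrps36, carries a ribosomal name but encodes a subunit of the 2-oxoglutarate dehydrogenase complex of the citric acid cycle. A bacterial counterpart was assigned to 29 of the large and 16 of the small subunit proteins, and 22 and 10 were counted as specific to mitochondria. Mrps18a and Mrps18b were counted as specific to mitochondria, although they are paralogs of Mrps18c, the counterpart of a bacterial protein. The symbols do not always give the place: Mrps18a and Mrps30 are proteins of the large subunit.

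The promoters of 69 of the 78 members were held by a RefSeq table for the build GRCm38.p6, which gives the bases from 250 before to 50 after each annotated start. Letters known as binding sites of factors of nuclear genes for mitochondrial proteins were counted on either strand. The letters CCGGAAG, which ETS factors such as GABPA bind, were found in 26 of the 69 members (37.7%), against 18.1% of the 11433 tested genes in the table and 9.93% of all 27025 genes in it. AAGATGGC, the letters of YY1, stood in 12 members (17.4%), against 4.77% of the tested genes and 3.19% of all genes. GCATGCGC, the core letters of NRF1, stood in 8 members (11.6%), against 5.43% and 3.05%. The E-box CACGTG was found in 5 members (7.25%) and in 11.2% of the tested genes (8.09% of all genes), and the TATA box letters TATAAA likewise in 5 members and in 9.53% of the tested genes (15.7% of all genes). At least 1 of the ETS, YY1 and NRF1 letters was present in 38 members (55.1%) and in 25.7% of the tested genes. A match is a description of the letters and not of binding. The 250 bases before the start are shown for 2 of the 8 members that carry NRF1 letters, those that the rule for named members picks, Mrpl17 (chr7:105811088-105811337, minus strand) and Mrps18b (chr17:35916441-35916690, minus strand), followed by 1 example each of ETS and of YY1 letters chosen after the matches were seen, Mrps22 (chr9:98601680-98601929, minus strand) and Mrps12 (chr7:28741822-28742071, minus strand). Capitals mark the matches on either strand, and each sequence reads 5′ to 3′ toward the gene. The bases after the start were searched but are not shown, and the ETS letters that Mrps18b and Mrps12 also hold are therefore not in the stretches printed.
Mrpl17: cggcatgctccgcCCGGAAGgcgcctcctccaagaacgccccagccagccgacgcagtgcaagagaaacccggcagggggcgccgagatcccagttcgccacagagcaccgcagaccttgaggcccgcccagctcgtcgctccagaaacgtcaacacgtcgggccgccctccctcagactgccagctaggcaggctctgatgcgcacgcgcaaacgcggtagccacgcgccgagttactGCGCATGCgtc
Mrps18b: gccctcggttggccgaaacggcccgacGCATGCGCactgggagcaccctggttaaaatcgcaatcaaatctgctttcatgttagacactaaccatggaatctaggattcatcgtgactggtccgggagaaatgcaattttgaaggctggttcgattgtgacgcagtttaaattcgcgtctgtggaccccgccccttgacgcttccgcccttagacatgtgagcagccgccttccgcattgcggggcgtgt
Mrps22: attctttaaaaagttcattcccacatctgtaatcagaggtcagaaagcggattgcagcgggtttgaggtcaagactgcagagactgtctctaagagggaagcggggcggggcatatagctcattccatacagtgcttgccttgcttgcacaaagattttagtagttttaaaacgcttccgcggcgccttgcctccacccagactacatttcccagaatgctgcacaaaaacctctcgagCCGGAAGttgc
Mrps12: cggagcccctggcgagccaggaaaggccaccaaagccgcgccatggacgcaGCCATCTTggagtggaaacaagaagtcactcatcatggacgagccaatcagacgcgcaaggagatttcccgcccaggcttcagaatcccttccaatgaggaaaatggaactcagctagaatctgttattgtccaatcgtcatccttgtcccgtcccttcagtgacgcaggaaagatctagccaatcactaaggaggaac
In Mrpl17 the NRF1 letters lie next to the start and the ETS letters far from it, whereas in Mrps18b the NRF1 letters lie at the far end of the window. The ETS letters of Mrps22 end a few bases before its start. For high PAC against water the median log2 fold change was 0.19 in members with ETS letters and 0.17 in those without, 0.20 with and 0.17 without YY1 letters, and 0.14 with and 0.18 without NRF1 letters.

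The libraries held between 15963086 and 17903886 expected counts in total. High PAC replicate 3 stood apart from the other 14. Its counts fell on shorter transcripts, with a mean length per count of 3129 bases against 3529 to 3681 in the others, and its FPKM summed to 677075 over all genes against 502110 to 573980. It held the highest FPKM of the 15 mice in 27.8% of the 14386 genes tested. The second library that mattered for the members was low PAC replicate 4, which had the fewest counts. The main results are therefore given with and without high PAC replicate 3.

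The mitochondrial ribosomal protein genes were expressed at moderate levels. Mean FPKM over the 15 mice ran from 4.07 to 98.5, with a median of 21.6, and the expected count of a member in a mouse ran from 78 to 1359. The transcripts were short, with a median length of 1055 bases against 2906 for all genes tested, and 33 members were shorter than 1000 bases. Over the 5 water mice the coefficient of variation of a member ran from 1.54% to 13.0%, with a median of 6.87% against 11.04% for all genes tested. The genes tested were not matched to the members in level, so the members are not shown to vary less than genes of like level.

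At the top of the range stood 3 ribosomal proteins and Mrps36. Mrpl52, a mitochondria-specific protein of the large subunit, had 88.7 ± 6.46 FPKM (SD, n = 5) in water, 98.2 ± 11.3 in low PAC and 109 ± 32.7 in high PAC. Mrpl42, also specific to mitochondria, had 82.3 ± 1.61, 90.9 ± 13.8 and 102 ± 18.7 FPKM. Mrps21, the counterpart of a bacterial small subunit protein, had 82.2 ± 4.63, 89.6 ± 11.6 and 95.6 ± 13.7 FPKM. The levels of these 3 overlapped within their spread in every group. Mrps36 had 64.4 ± 3.15, 68.4 ± 9.79 and 69.9 ± 2.94 FPKM. At the lower end, 4 counterparts of bacterial large subunit proteins had the lowest levels: Mrpl17 with 3.85 ± 0.148 FPKM in water, Mrpl19 with 4.04 ± 0.162, Mrpl11 with 6.00 ± 0.316 and Mrpl35 with 6.03 ± 0.265. Mrpl11 and Mrpl35 did not differ beyond their spread. Their transcript models are long, from 2882 bases for Mrpl11 to 6712 for Mrpl17, and FPKM divides by that length. The largest variation within water was found for Mrpl41 (13.0%), Mrps12 (12.5%) and Mrps26 (12.2%).

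The summed level of the 78 genes was higher in every high PAC mouse than in any water mouse when read as FPKM. The sums were 1993, 1884, 1956, 1911 and 1956 FPKM in the water mice, 1983, 2096, 1974, 2406 and 1932 in the low PAC mice and 2163, 2169, 3040, 2101 and 2113 in the high PAC mice, in the order of the replicate numbers. High PAC replicate 3 lay far above all others, low PAC replicate 4 was second, and the other 8 treated mice lay between 1932 and 2169. The means were 1940 ± 42.7 FPKM in water, 2078 ± 193 in low PAC and 2317 ± 405 in high PAC, and 2137 ± 34.5 (n = 4) in high PAC without replicate 3. As a share of all expected counts the members took 0.189% ± 0.00487 in water, 0.202% ± 0.0178 in low PAC and 0.225% ± 0.0363 in high PAC (0.208% ± 0.00403 without replicate 3). The separation depended on the scaling. As a share of the summed FPKM of all genes, which also differed between libraries, the members took 0.340% to 0.390% in water, 0.350% to 0.437% in low PAC and 0.371% to 0.449% in high PAC, and water replicate 3 lay above every high PAC mouse but replicate 3. After TMM scaling (trimmed mean of M values, which sets the libraries level on the bulk of their genes), the median log2 CPM (counts scaled to the size of the library) of the members relative to the water mean was 0.07, -0.06, 0.07, -0.02 and -0.05 in water and 0.01, 0.12, 0.51, 0.04 and 0.04 in high PAC, so that 3 of the 5 high PAC mice lay inside the range of the water mice. In low PAC it was -0.06, 0.10, -0.02, 0.20 and -0.09. No test was made on a sum over the members.

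**Figure D1:**
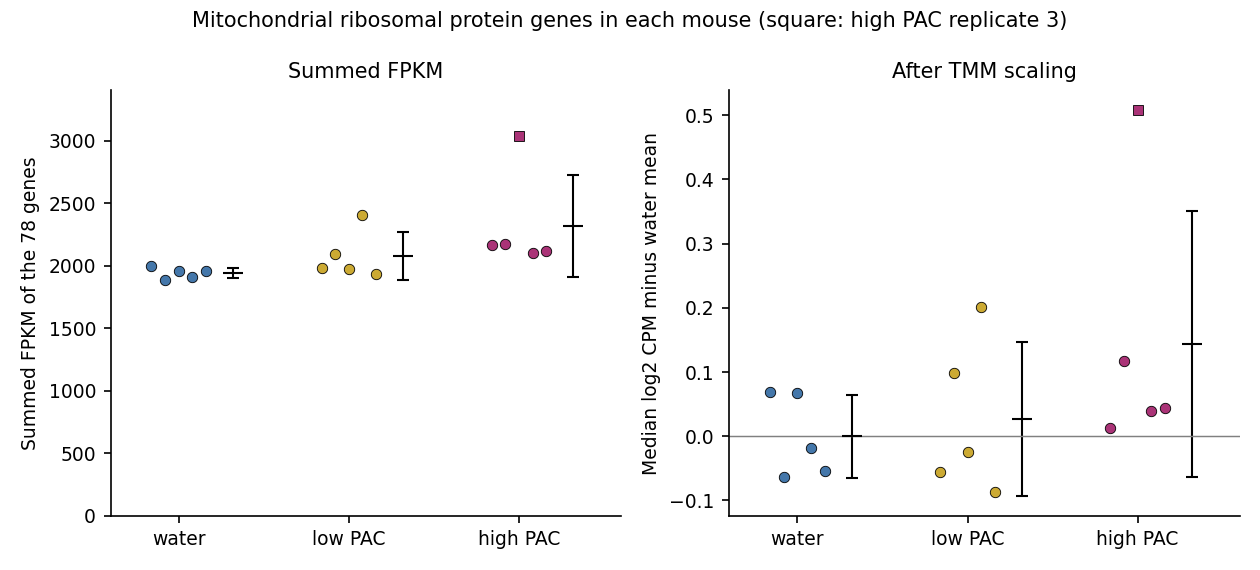
Summed FPKM of the 78 mitochondrial ribosomal protein genes (left) and their median log2 CPM after TMM scaling minus the water mean (right), 1 point per mouse, with the mean and SD of the 5 mice as a bar beside the points. All 5 high PAC mice lie above the water mice on the left (lowest 2101 against highest 1993 FPKM), whereas on the right only 2 of 5 do, high PAC replicate 3 at 0.51 standing apart.

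Mouse by mouse, the FPKM of each member was set against its mean in water. In high PAC replicate 3 all 78 members were above the water mean (61.1% of all genes tested were), with a median difference of 0.63 on the log2 scale against 0.13 for all genes; it was the highest of the 15 mice for 71 members (27.8% of all genes) and the second highest for the other 7 (Mrps36, Mrpl34, Mrps15, Mrpl39, Mrpl38, Mrps2 and Mrpl57; Mrpl34, Mrpl39, Mrpl38 and Mrps2 are named after their values were seen). Low PAC replicate 4 was highest for those 7. It was the highest low PAC mouse for 53 members (30.7% of all genes), 71 members were above the water mean in it (57.1% of all genes), and its median difference was 0.27 against 0.05 for all genes. In the other 4 high PAC mice 75, 72, 68 and 68 members were above the water mean (70.6%, 57.5%, 59.8% and 61.5% of all genes), with medians of 0.15, 0.17, 0.10 and 0.13 against 0.12, 0.04, 0.05 and 0.06 for all genes. In the other 4 low PAC mice 49, 66, 42 and 35 were (59.7%, 48.5%, 54.5% and 59.5% of all genes), with medians of 0.03, 0.09, 0.01 and -0.02 against 0.04, -0.01, 0.02 and 0.05. In the water mice between 25 and 47 members lay above their mean, against 40.3% to 63.4% of all genes. The ratio of the summed large to the summed small subunit genes differed between the groups by less than its spread, at 2.34 ± 0.0369 in water, 2.32 ± 0.0768 in low PAC and 2.33 ± 0.0262 in high PAC (SD, n = 5).

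**Figure D2:**
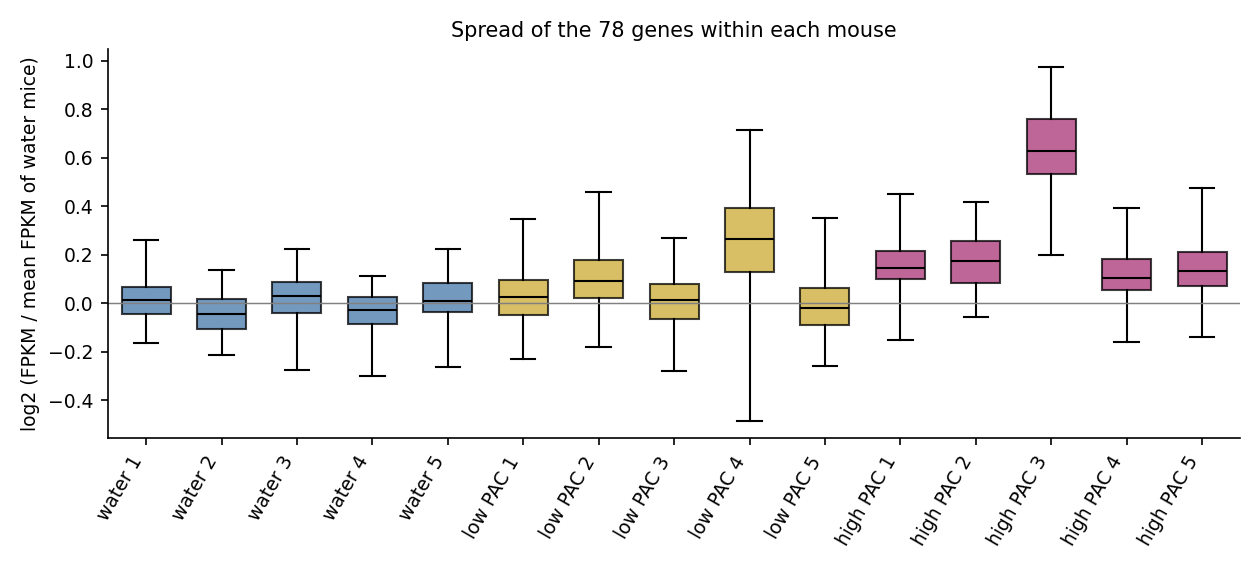
Log2 of the FPKM of each of the 78 genes over its mean in the 5 water mice, as 1 box per mouse (box: quartiles and median; whiskers: lowest and highest gene). The box of high PAC replicate 3 (median 0.63) lies above all others, that of low PAC replicate 4 (median 0.27) is the next, and the other 4 high PAC mice have medians from 0.10 to 0.17.

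High PAC was compared with water to ask whether the larger polymers altered the ileum. No mitochondrial ribosomal protein gene passed the test, but nearly all of them had a slightly higher level. In edgeR's quasi-likelihood test over 14386 genes, 0 of 78 members had a Benjamini-Hochberg adjusted p under 0.05, where 0.0139% of all genes tested did, and the lowest adjusted p of a member was 0.237. At an unadjusted p under 0.05, 10 members were higher (4.37% of all genes were) and 0 were lower (10.4% of all genes were). DESeq2 also gave 0 members with an adjusted p under 0.05, and 22 higher at an unadjusted p under 0.05 (6.15% of all genes). The log2 fold change was above 0 for 77 of the 78 members, against 50.5% of all genes, and its median was 0.18 against 0.00 for all genes. It ran from -0.03, for Mrpl24, the counterpart of a bacterial large subunit protein, named after its value was seen, to 0.36, for Mrps28. No member reached a 2-fold difference in mean FPKM, the limit the study used, and the ratios of the means ran from 1.05 to 1.37. By FPKM, all 5 high PAC mice lay above all 5 water mice for 17 members (3.99% of all genes did) and below them for 0 (0.646%). The count of 10 was 3, 6 and 6 without water replicates 2, 4 and 5 (4.64%, 5.20% and 4.16% of all genes), and 20 and 16 without high PAC replicates 1 and 5 (4.78% and 4.85%). Under upper-quartile scaling, which moved the median of all genes to 0.07, the median of the members was 0.24, all 78 were above 0 and 33 were higher at an unadjusted p under 0.05 (10.5% of all genes).

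The 10 genes with an unadjusted p under 0.05 held 6 proteins of the small and 4 of the large subunit. Mrps33, a small mitochondria-specific protein of the small subunit, had the smallest p. Its FPKM was 17.0, 18.2, 17.1, 17.2 and 18.3 in the water mice, 21.5, 18.2, 16.6, 23.1 and 18.6 in the low PAC mice and 20.9, 21.6, 31.2, 21.6 and 22.1 in the high PAC mice. By FPKM every high PAC mouse was above every water mouse, and low PAC lay across both. Such separations of single genes were read on FPKM throughout. The median FPKM difference over all genes tested was also above the water mean in every high PAC mouse. High PAC against water had a log2 fold change of 0.32 ± 0.11 (SE), with an edgeR adjusted p of 0.237, and 0.24 without high PAC replicate 3 (adjusted p = 0.342).

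Mrpl11, the counterpart of the bacterial protein of the stalk base that contacts the translation factors, came next. Its FPKM was 6.03, 6.03, 6.41, 5.52 and 6.01 in water, 6.03, 6.65, 6.34, 7.02 and 6.08 in low PAC and 7.13, 7.71, 10.2, 6.69 and 7.61 in high PAC. High PAC lay above all water mice, and 1 low PAC mouse exceeded the lowest high PAC mouse. This gave a log2 fold change of 0.29 ± 0.10 (edgeR adjusted p = 0.247), and 0.22 without high PAC replicate 3. Mrpl3, also of bacterial origin, had 16.01, 16.01, 17.61, 16.43 and 16.72 FPKM in water and 18.2, 20.1, 26.1, 18.8 and 19.3 in high PAC, again without overlap. Its log2 fold change was 0.21 ± 0.09, and 0.15 without that mouse. Mrpl19, among the lowest members, had 3.87, 3.97, 3.96, 4.09 and 4.29 FPKM in water and 5.52, 4.65, 6.27, 4.22 and 4.68 in high PAC, so that 1 high PAC mouse lay inside the water range. Mrpl49, specific to mitochondria, had 14.9, 14.7, 14.3, 14.6 and 15.9 FPKM in water and 18.1, 15.6, 20.3, 17.7 and 18.5 in high PAC. It depended least on high PAC replicate 3 among the 10, with a log2 fold change of 0.18 ± 0.08 with it and 0.18 without it.

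In the small subunit, Mrps28, the counterpart of a bacterial protein, had the fewest counts of any member and the highest log2 fold change, 0.36 ± 0.15. Its FPKM was 6.77, 7.46, 6.95, 8.11 and 8.30 in water and 9.49, 9.93, 14.7, 8.75 and 8.68 in high PAC, where the other 4 mice lay well under replicate 3. Mrps22, which is specific to mitochondria, had 16.03, 15.11, 17.25, 17.19 and 15.99 FPKM in water and 18.7, 18.1, 29.1, 21.5 and 19.7 in high PAC. Neither gene's groups overlapped, and both lost their unadjusted p under 0.05 without high PAC replicate 3, as did Mrps34. Their log2 fold changes without that mouse were 0.24 for Mrps28, 0.20 for Mrps22 and 0.18 for Mrps34. Mrps34 and Mrps23, also specific to mitochondria, had log2 fold changes of 0.28 ± 0.12 and 0.18 ± 0.08, and 1 high PAC mouse of each lay inside the water range. Mrps18c had 50.02, 48.28, 49.69, 48.89 and 47.73 FPKM in water, 52.9, 54.4, 50.7, 51.6 and 54.1 in low PAC and 59.1, 56.7, 86.6, 55.2 and 51.9 in high PAC. Its level was nearly constant in water, and both PAC groups lay above it. Its log2 fold change was 0.24 ± 0.11 (edgeR adjusted p = 0.322), and 0.13 without high PAC replicate 3.

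**Figure D3:**
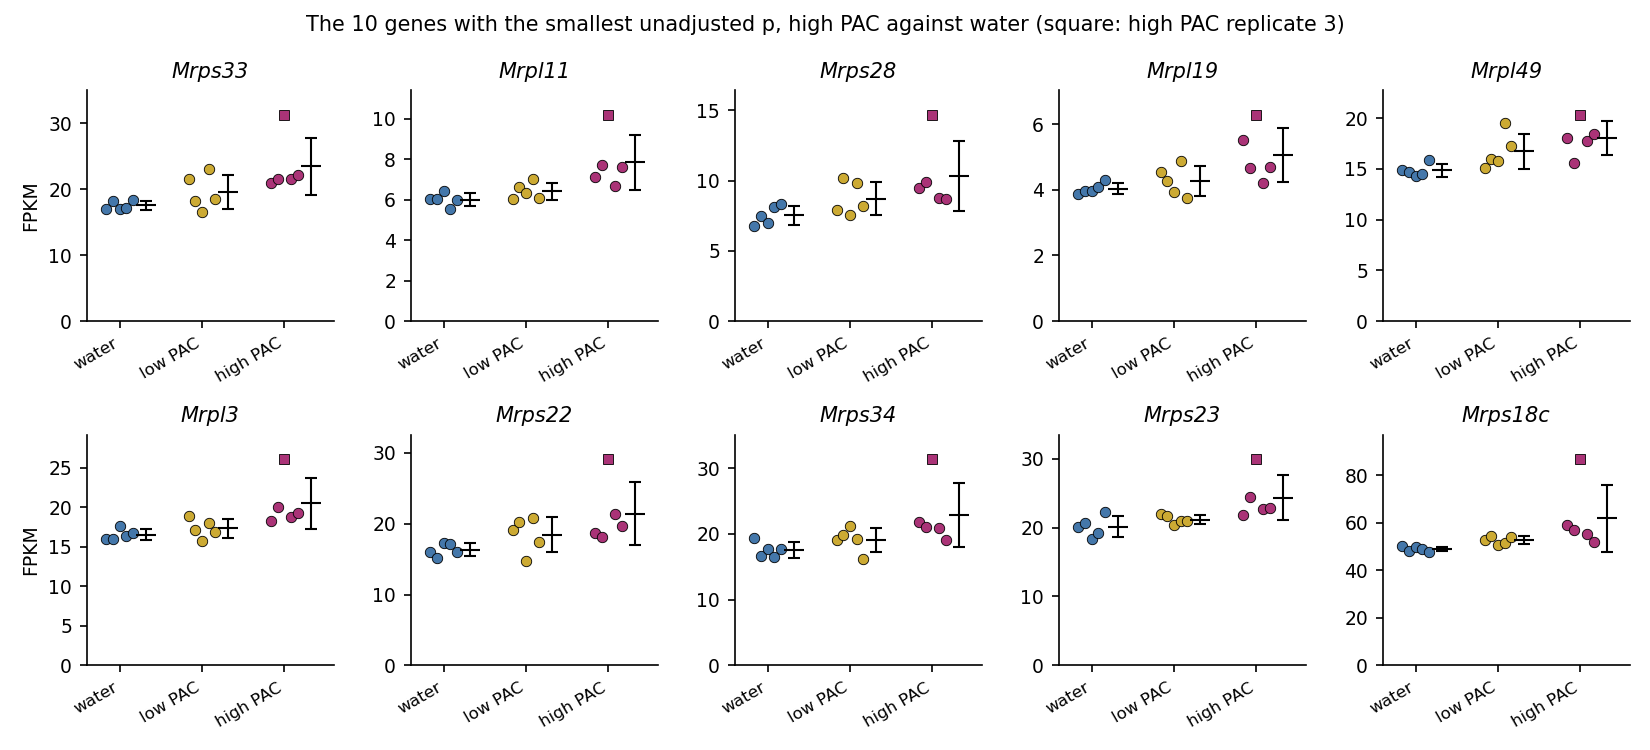
FPKM in each mouse for the 10 genes with the smallest unadjusted p for high PAC against water, with the mean and SD of 5 mice beside the points and the axis starting at 0. High PAC replicate 3 (square) is the highest point in all 10 panels, and for Mrps33 the other 4 high PAC mice, at 20.9 to 22.1 FPKM, also lie above the water mice, whose highest is 18.3.

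Without high PAC replicate 3 the difference between high PAC and water was smaller and still above 0 for most members. The log2 fold change was above 0 for 72 members (53.9% of all genes), its median was 0.09 against 0.01 for all genes, and it was smaller than with that mouse for 76 members and larger for 2. At an unadjusted p under 0.05, 7 members were higher (5.25% of all genes) and 0 were lower (5.62%), and these 7, Mrps33, Mrpl11, Mrpl19, Mrpl49, Mrpl3, Mrps23 and Mrps18c, were all among the 10. None had an adjusted p under 0.05 in edgeR (0.0208% of all genes did), and the lowest was 0.334. By FPKM, the 4 remaining high PAC mice lay above all water mice for 17 members, against 5.20% of all genes.

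**Figure D4:**
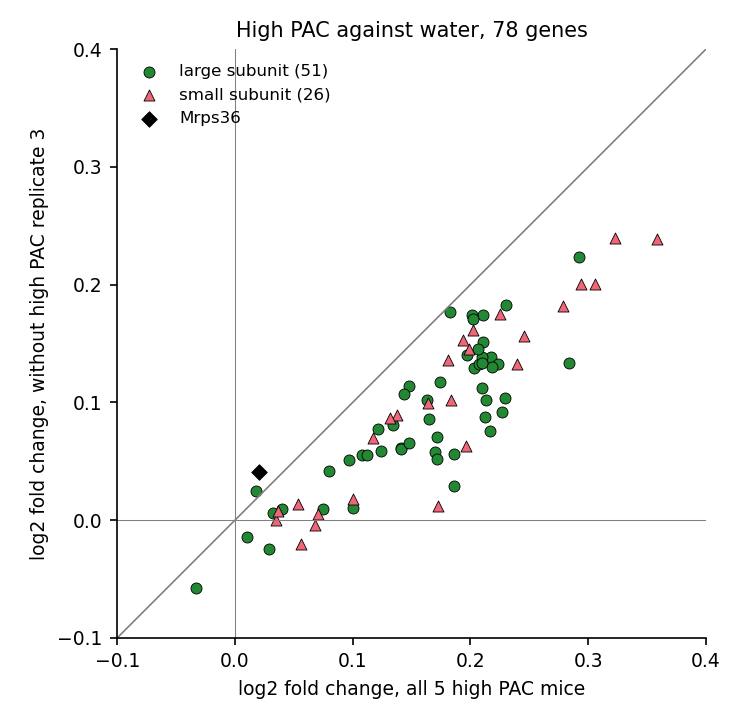
Log2 fold change of high PAC against water for each of the 78 genes, fitted with all mice (horizontal) and without high PAC replicate 3 (vertical), by subunit, with a line of equal values. Points lie under the line for 76 genes and mostly above 0 on both axes, with medians of 0.18 and 0.09.

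The subunits and the origins of the proteins had close medians, and their difference was not tested. The median log2 fold change of high PAC against water was 0.17 for the 51 large subunit genes, of which 50 were above 0 and 4 were higher at an unadjusted p under 0.05, and 0.18 for the 26 small subunit genes, of which 26 and 6 were (50.5% and 4.37% of all genes). It was 0.17 for the 45 genes with a bacterial counterpart and 0.18 for the 32 specific to mitochondria, with 5 higher at an unadjusted p under 0.05 in each (4.37% of all genes). Without high PAC replicate 3 the medians of the large and small subunit genes were 0.09 and 0.10.

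The members set apart by their known roles had these values. The 3 Mrps18 paralogs occupy different places: Mrps18c is the counterpart of the bacterial protein, Mrps18b is another protein of the small subunit and Mrps18a belongs to the large subunit. Mrps18a had 29.9, 25.0, 27.0, 27.1 and 27.5 FPKM in water and 31.0, 34.3, 41.0, 31.1 and 31.5 in high PAC, with no overlap and a log2 fold change of 0.21 ± 0.11. Mrps18b had 31.5, 27.4, 29.4, 26.9 and 31.0 FPKM in water and 31.6, 29.5, 43.0, 31.3 and 29.7 in high PAC, where the groups overlapped, and its log2 fold change was 0.07 ± 0.12, and 0.01 without high PAC replicate 3. Mrps30, of the large subunit, had a log2 fold change of 0.17 ± 0.13, and 0.05 without that mouse. Mrpl12, the counterpart of the bacterial stalk protein, which also binds mitochondrial RNA polymerase, had 0.20 ± 0.14 with and 0.13 without it. Mrpl58, a peptidyl-tRNA hydrolase built into the large subunit, had 0.22 ± 0.13 and 0.13. Mrps36, the member that acts in another complex, had 62.8, 63.7, 67.8, 67.5 and 60.4 FPKM in water and 70.8, 70.7, 74.0, 66.6 and 67.6 in high PAC. High PAC replicate 3 was hardly higher than its group there, and the log2 fold change was 0.02 ± 0.09, and 0.04 without that mouse.

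Low PAC was compared with water to ask the same of the smaller polymers. Here the mitochondrial ribosomal protein genes had nearly the levels of the water group. In edgeR's quasi-likelihood test 0 members had an adjusted p under 0.05 (0.00% of all genes did), and the lowest adjusted p was 0.976. At an unadjusted p under 0.05, 0 members were higher (1.40% of all genes) and 0 lower (2.21%), and DESeq2 likewise gave 0 higher (1.59% of all genes). The log2 fold change was above 0 for 57 members (45.5% of all genes), with a median of 0.03 against -0.01 for all genes and a range from -0.14 to 0.17. With high PAC replicate 3 left out of the shared fit it was above 0 for 63 members, with a median of 0.05 against 0.01. Under upper-quartile scaling it was above 0 for 65 members, with a median of 0.06 against 0.02. Without low PAC replicate 4 it was above 0 for 35 members, against 41.2% of all genes, with a median of -0.01 against -0.02, so the positive median rested on that mouse. It was 0.09, against 0.00 for all genes, without water replicates 1 and 3, which stand apart in the muscle and nerve markers given below. By FPKM, Mrps18c alone had all 5 low PAC mice above all water mice (0.494% of all genes did), with a log2 fold change of 0.06 ± 0.11 (edgeR adjusted p = 0.981) after TMM scaling.

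The 5 members with the smallest p for low PAC against water were Mrpl49, Mrpl57, Mrpl37, Mrps15 and Mrpl44. Mrpl57, specific to mitochondria, had 7.18, 6.97, 7.17, 7.66 and 8.49 FPKM in water and 7.87, 7.62, 8.70, 11.1 and 7.65 in low PAC, where replicate 4 was far above the rest and the groups overlapped. Its log2 fold change was 0.14 ± 0.11, and those of Mrpl49, Mrpl37 and Mrps15 were 0.12 ± 0.08, 0.13 ± 0.10 and 0.14 ± 0.11. Omitting 1 mouse at a time, Mrpl57 ranged from 0.04 to 0.18 and Mrpl49 from 0.06 to 0.16. Mrpl37 then ranged from 0.05 to 0.20 and Mrps15 from 0.02 to 0.19. Mrps15, the counterpart of a bacterial small subunit protein, had 37.4, 33.2, 36.7, 35.1 and 39.1 FPKM in water and 40.5, 36.3, 39.3, 55.2 and 36.8 in low PAC. Mrpl37, which is specific to mitochondria, had 18.7, 18.5, 16.1, 19.3 and 19.8 FPKM in water and 18.5, 22.0, 21.3, 25.8 and 17.5 in low PAC. Low PAC replicate 4 was again the highest mouse of its group for both. Mrpl44, a mitochondria-specific protein related to double-stranded RNA endonucleases, had a negative log2 fold change of -0.11 ± 0.09, with 11.4 ± 0.977 FPKM in water and 11.03 ± 0.856 in low PAC.

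The high and low PAC preparations were given at the same dose and for the same time. No member differed between them in the test, and high PAC was slightly higher for most. None had an adjusted p under 0.05 in edgeR (0.00% of all genes did), and the lowest adjusted p was 0.896. At an unadjusted p under 0.05, 5 members were higher in high PAC (1.84% of all genes) and 0 were lower (2.05%); these were Mrpl33, Mrpl3, Mrps14, Mrpl11 and Mrpl19, of which Mrpl33 and Mrps14 are named after their values were seen. DESeq2 gave 7 higher (2.29% of all genes) and 0 with an adjusted p under 0.05. The log2 fold change was above 0 for 75 members (51.4% of all genes), with a median of 0.14 against 0.00 for all genes and a range from -0.09 to 0.37. Without high PAC replicate 3, 1 member was higher at an unadjusted p under 0.05 (0.899% of all genes), 0 were lower (0.927%), 54 were above 0 (52.6% of all genes) and the median was 0.03 against 0.01. With an offset for transcript length 56 were above 0 (52.5% of all genes), the median was 0.05 against 0.01 and 5 were higher at an unadjusted p under 0.05 (1.87%), and under upper-quartile scaling 13 were higher (3.54%). Omitting 1 mouse at a time gave counts from 1 to 12. No member had all high PAC mice above all low PAC mice by FPKM (0.646% of all genes did), or all below them (0.0904%). The 3 comparisons share their mice in pairs, so their values are not independent of each other.

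The length of the transcript went with the fold change of high PAC against water over all genes. The median log2 fold change of all genes tested fell from 0.19 under 700 bases to 0.14 at 700 to 1000, 0.09 at 1000 to 1500, 0.03 at 1500 to 2500 and -0.04 over 2500 bases. For the members the medians in these classes were 0.20, 0.20, 0.18, 0.16 and 0.16, over 12, 21, 22, 16 and 7 genes. Members shorter than 700 bases thus had nearly the median of all genes of that length, and longer members had more than the genes of theirs. Without high PAC replicate 3 the medians of all genes ran from 0.06 to 0.00 and those of the members from 0.08 to 0.10. With an offset for each mouse that levels counts over transcript length, the median of the members was 0.09 against 0.02 for all genes, 65 members were above 0 (55.0% of all genes), 7 were higher at an unadjusted p under 0.05 (6.06%) and 1 was lower (7.49%). The part of transcript length in the difference was not tested beyond this offset.

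**Figure D5:**
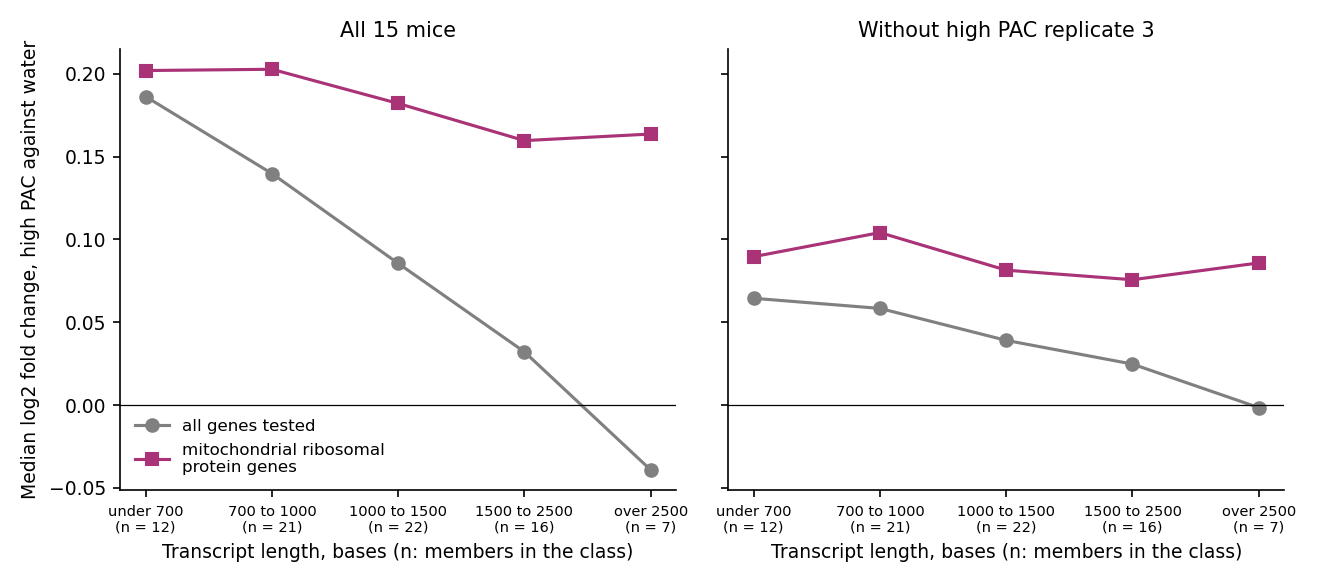
Median log2 fold change of high PAC against water in 5 classes of transcript length, for all genes tested (grey) and for the members in the class (purple; their number stands under each class), with all mice (left) and without high PAC replicate 3 (right). The grey line falls from 0.19 to -0.04 on the left and from 0.06 to 0.00 on the right, while the members stay between 0.16 and 0.20 and between 0.08 and 0.10.

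The other genes of mitochondrial translation were read from lists. In high PAC against water 0 genes of any of these lists had an adjusted p under 0.05 (0.0139% of all genes did), and their unadjusted counts stand beside 4.37% higher and 10.4% lower of all genes tested. Among 5 mitoribosome proteins under other names (5 of 7 listed in the files), 5 had a log2 fold change above 0, with a median of 0.13, and without high PAC replicate 3, 4 did, with a median of 0.04. The smallest p of this list belonged to Ptcd3, a pentatricopeptide protein of the small subunit, at 0.13 ± 0.07 (0.11 without that mouse). The 12 translation factors measured held 6 above and 6 below 0, 1 higher and 1 lower at an unadjusted p under 0.05, with a median of 0.00 (9 above 0 and a median of 0.04 without that mouse); Mrrf, the ribosome recycling factor, was at 0.22 ± 0.09 (0.19 without it) and Gfm2, which acts with it, at -0.14 ± 0.06 (-0.09), with edgeR adjusted p of 0.274 and 0.278. Among the 20 mitochondrial aminoacyl-tRNA synthetases, which charge the tRNAs, 18 were above 0 with a median of 0.07, with and without that mouse, and 0 had an unadjusted p under 0.05; Ears2 was at 0.18 ± 0.09 and Hars2 at -0.02 ± 0.09. Of 25 assembly and rRNA modification genes, 22 were above 0 with a median of 0.06, 3 were higher and 1 lower at an unadjusted p under 0.05 (4.37% and 10.4% of all genes), and without that mouse the median was also 0.06, with 1 higher and 0 lower (5.25% and 5.62%). Malsu1, which keeps the large subunit from joining early, was at 0.39 ± 0.15 (0.23 without it), and the rRNA methyltransferase gene Mrm1 at -0.28 ± 0.11 (-0.22). Of 17 genes of mitochondrial transcription and mRNA handling, 12 were above 0 with a median of 0.11, 0 at an unadjusted p under 0.05, and without that mouse 13 were, with a median of 0.06. Tfam, the packaging and transcription factor of mitochondrial DNA, was at 0.25 ± 0.12 (0.13 without it) and Polg2 at -0.23 ± 0.17 (-0.27). Among 9 nuclear regulators, 4 were above 0 with a median of -0.02, with and without that mouse. Nrf1, whose letters stand in the promoters above, was at 0.10 ± 0.07 (0.14 without it), and the coactivator gene Ppargc1a at -0.35 ± 0.15 with an unadjusted p of 0.0321 and an edgeR adjusted p of 0.299 (-0.22 without it).

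The 2 larger groups whose products work with the mitoribosome were also highest in high PAC replicate 3. The 79 cytosolic ribosomal protein genes, whose ribosomes make the imported proteins, had a log2 fold change above 0 for 79 genes (50.5% of all genes) with a median of 0.20 in high PAC against water. Without high PAC replicate 3 it was above 0 for 55 (53.9% of all genes) with a median of 0.02, where the mitochondrial ribosomal protein genes had 0.09. In both fits 0 of the 79 were higher at an unadjusted p under 0.05 (4.37% and 5.25% of all genes). Their summed FPKM was 74331 in that mouse and 35976 to 45493 in the other 14. The 79 nuclear genes of respiratory chain and ATP synthase subunits, the partners of the proteins that the mitoribosome makes, had a median of 0.16, and of 0.07 without that mouse, with 10 and 5 genes higher at an unadjusted p under 0.05 (4.37% and 5.25% of all genes). With the length offset the cytosolic list had 61 genes above 0 and a median of 0.04 (2 higher at an unadjusted p under 0.05), and the respiratory list 56 and a median of 0.02 (1 higher and 1 lower), against 55.0% above 0, 6.06% higher and 7.49% lower of all genes. Under upper-quartile scaling 2 and 37 genes of these lists were higher (10.5% of all genes). Summed FPKM of this list was 19268 in high PAC replicate 3 and 12173 to 14138 elsewhere.

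Markers of cell types were read beside these values, since the tissue is mixed. The 8 markers of cycling crypt cells summed to 345 to 444 FPKM in water, 330 to 471 in low PAC and 377 to 640 in high PAC, with high PAC replicate 3 the highest and low PAC replicate 4 the second; 8 of 8 had a log2 fold change above 0 in high PAC against water, with a median of 0.20, and 7 of 8 without that mouse, with a median of 0.17. The 10 markers of absorptive enterocytes summed to 13424 to 17645 FPKM in water, 11480 to 15512 in low PAC and 10027 to 14920 in high PAC, with high PAC replicate 3 the lowest; 8 of 10 were below 0, with a median of -0.38, and 5 were lower at an unadjusted p under 0.05 (10.4% of all genes). Without that mouse the median was -0.23 and 4 were lower (5.62% of all genes). The 8 markers of follicular B cells varied most among mice, from 8.03 to 163 FPKM in water, 8.34 to 80.4 in low PAC and 6.09 to 240 in high PAC, with high PAC replicate 3 second of 15, and the T cell markers (7 of 8 listed) summed to 23.0 to 53.9, 25.5 to 37.4 and 20.2 to 63.5 FPKM, highest in high PAC replicate 3. The medians of the B and T cell lists in high PAC against water were 0.07 and -0.10, and -0.42 and -0.37 without that mouse. The 8 mesothelial markers summed to 1168 to 1429 FPKM in water, 1153 to 1939 in low PAC and 1390 to 2046 in high PAC, with the same mouse highest. Smooth muscle markers summed to 271 to 917, 570 to 1005 and 692 to 1104 FPKM, and markers of enteric neurons and glia to 7.33 to 20.1, 15.6 to 21.9 and 21.0 to 26.0 FPKM; high PAC replicate 3 ranked 12 and 6 of 15 in them. Water replicates 1 and 3 stood apart in both, at 312 and 271 FPKM for muscle and 8.68 and 7.33 FPKM for neurons and glia. In high PAC against water 8 of 8 markers were above 0 in the muscle, the nerve and the mesothelial list, with medians of 0.42, 0.58 and 0.92, and without these 2 water mice 3, 8 and 7 of 8 were, with medians of -0.02, 0.28 and 0.21. Without them the median of the mitochondrial ribosomal protein genes was 0.20, 78 were above 0 (53.8% of all genes), and 11 were higher at an unadjusted p under 0.05 (3.23% of all genes). Markers of exocrine pancreas (5 of 8 listed) stayed at or under 3.00 FPKM in every mouse. The part of cell composition in the levels of the mitochondrial ribosomal protein genes was not tested.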

How the data were processed

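Total RNA of the ileum of 15 mice was sequenced in pairs of reads on a BGISEQ-500. By the methods, the authors cleaned reads with SOAPnuke and mapped them to mm10 with Bowtie2, while the submitters' processing notes name HISAT, DESeq2 and mm10; the tool that counted fragments is not given in the sources used here. The deposited expected counts are estimated fragments per gene, not normalized and not all whole (88.6% to 89.5% of values in a library are), at 15963086 to 17903886 per library. The deposited FPKM values were scaled by the authors for length and mapped fragments and rounded to 0.01, and a gene absent from a library was taken as 0. The deposited length per gene came from the same tables.

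Counts were rounded and fitted in 1 model of 3 groups without a replicate block, with edgeR 4.0.16 (TMM, filterByExpr, quasi-likelihood test) in R 4.3.3, and p-values were adjusted by Benjamini-Hochberg over all 14386 genes tested. Log2 fold changes and their SE come from this fit, and means ± SD are of FPKM. The exact permutation test over the 252 splits of 10 mice was not used, since members were picked by their p. DESeq2 1.42.0, limma 3.58.1 on log2(FPKM + 0.1) and log2(FPKM + 1), other scalings, no filter, a replicate block, an offset for transcript length and omission of each mouse were alternatives. The steps were tested on simulated counts.

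Members, gene lists and tests were chosen with earlier results of these data known, so no count is independent support. The cytosolic ribosomal protein and respiratory chain lists were taken by symbol at a mean of at least 1 FPKM. Members named are the 10 and 5 with the smallest p for high PAC and low PAC against water, the 4 with the highest and the 4 with the lowest mean FPKM, those nearest the minimum, 7 by known role and the 3 most variable in water; from each other list of mitochondrial translation the gene with the smallest p in each direction; others are said to be named after their values were seen.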

Additional observations from a re-analysis of the deposited data

Results flagged for a closer look

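A mouse was looked at again where its gap to the nearest other mouse of its group, divided by the range of the group, exceeded 0.71, Dixon's limit for 5 values. Of 87 groups of 5 mice tested (the summed FPKM and the 28 named members in 3 groups), 21 did, where chance gives about 1 in 20. In 15 of the 21 it was high PAC replicate 3 that lay above its group. The ratio was 0.928 for the summed FPKM, 0.910 for Mrpl42, 0.883 for Mrps33, 0.843 for Mrps18b, 0.800 for Mrpl52, 0.794 for Mrpl35, 0.791 for Mrps18c, 0.791 for Mrps28, 0.782 for Mrps34, 0.780 for Mrpl17, 0.768 for Mrpl3, 0.760 for Mrps15, 0.734 for Mrpl58, 0.714 for Mrps21 and 0.713 for Mrpl37. These members share the mouse, and they are not separate pieces of evidence. Low PAC replicate 4 lay above its group for Mrps15 (0.778), Mrpl52 (0.767) and Mrpl42 (0.759). In water, replicate 3 was high for Mrps30 (0.773), replicate 1 was low for Mrpl17 (0.784) and replicate 4 was low for Mrpl44 (0.732).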

How the results depend on the processing

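No alternative gave a member with an adjusted p under 0.05 in any comparison, and the lowest adjusted p of a named member against water under any of them was 0.0843, for Mrpl11 in DESeq2. The median log2 fold change of the members in high PAC against water stayed above 0 under every alternative, from 0.06 to 0.25, and in high PAC against low PAC from 0.02 to 0.18; in low PAC against water it was -0.01 without low PAC replicate 4. The ratio of the mean summed level to water was 1.19 by FPKM and by share of counts in high PAC, and 1.07 by both in low PAC. By share of the summed FPKM of all genes the groups lay closer, at 0.359% in water, 0.378% in low PAC and 0.395% in high PAC. Without high PAC replicate 3 the high PAC mean was 2137 FPKM against 1940 in water, and 0.381% of the summed FPKM. The number of members higher at an unadjusted p under 0.05 depended on scaling and test. In high PAC against water it was 10 in the main analysis (4.37% of all genes), 33 under upper-quartile scaling (10.5%), 22 under RLE scaling (6.21%), 22 in DESeq2 (6.15%), 24 without the filter (6.20%), 41 in limma on log2(FPKM + 0.1) (15.4%) and 44 on log2(FPKM + 1) (15.7%). With the length offset 7 were higher (6.06%) and 1 was lower (7.49%), and with only the 2 groups in the fit 9 were higher (3.72%). In high PAC against low PAC it was 5 in the main analysis (1.84%), 13 under upper-quartile scaling (3.54%), 8 under RLE scaling (2.42%), 7 in DESeq2 (2.29%), 10 without the filter (2.28%), 15 and 17 in limma with the smaller and larger pseudocount (4.07% and 4.40%), 5 with the length offset (1.87%) and 2 with only the 2 groups in the fit (1.38%). The cause of these changes was not tested. Omitting each mouse in turn gave 3 to 20 in high PAC against water and 1 to 12 in high PAC against low PAC, where it was 3, 2 and 2 without low PAC replicates 1, 3 and 5 (1.31%, 1.27% and 1.41% of all genes), 8 and 10 without low PAC replicates 2 and 4 (1.89% and 2.13%), 12 and 12 without high PAC replicates 1 and 4 (2.17% and 2.83%), 9 without high PAC replicate 5 (3.29%) and 1 without high PAC replicate 3 (0.899%).

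The replicate numbers in the titles are shared by the groups but were not taken to pair the mice. The correlation of deviations between mice of the same number averaged 0.149 (-0.216 to 0.445) for high PAC and water. For low PAC and water it averaged 0.123 (-0.272 to 0.386), and for high and low PAC -0.123. Between mice of different numbers the averages were -0.038 (-0.498 to 0.554), -0.031 (-0.319 to 0.396) and 0.032. The ranges overlap, so these correlations cannot settle whether the numbers pair the mice. With the replicate number as a block, 9 members were higher at an unadjusted p under 0.05 in high PAC against water (3.91% of all genes), 2 in high PAC against low PAC (1.35%) and 0 in low PAC against water, and no adjusted call changed. The combinations with the omission of high PAC replicate 3, and the omission of water replicates 1 and 3 together, were chosen after seeing the data. With the length offset 4 members were higher in high PAC against water (4.93% of all genes) and 1 in high PAC against low PAC (0.713%), and with upper-quartile scaling 11 were in high PAC against water (6.88%), 2 in low PAC against water (2.94%) and 1 in high PAC against low PAC (1.04%).

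Signs of log2 fold changes near 0 turned for 6 of the 28 members that the naming rule picks in high PAC against water. With the length offset they were -0.019 for Mrpl52, -0.047 for Mrps21, -0.092 for Mrps36, -0.023 for Mrps18b, -0.041 for Mrps26 and -0.042 for Mrpl44, and with the offset and without high PAC replicate 3 -0.038 for Mrpl52, -0.014 for Mrps36, -0.036 for Mrps18b, -0.062 for Mrps26 and -0.046 for Mrpl44. Mrps26 was also at -0.00101 under upper-quartile scaling without that mouse. Omitting 1 mouse at a time, Mrps36 ranged from -0.019 to 0.050, Mrps26 from -0.020 to 0.13 and Mrpl44 from -0.043 to 0.045. Of the members named after their values were seen, Mrpl34 was at -0.11 and Mrpl39 at -0.00064 with the length offset, and Mrpl34 at -0.025 and Mrps2 at -0.00014 without high PAC replicate 3. The remaining 875 values of the members that the rule picks kept their sign, and none had an adjusted p under 0.05. The unadjusted p of single members did cross 0.05 under some alternatives, as the counts above show. The median of the members spread between mice by 0.143 log2 units (pooled SD within groups), and by 0.0856 without high PAC replicate 3.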
